A study of Mus musculus with 20 samples.

Results

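The insulin and growth hormone signaling genes described here are 10 genes of the liver, Insr, Ghr, Irs1, Irs2, Akt2, Foxo1, Foxo3, Igf1, Igfbp1 and Igfbp2, out of 19505 genes on the arrays. They were matched by symbol to the annotation of the probe sets, and each was read by 1 probe set. The choice was made with earlier results of these data known. All 10 passed the filter that left out dim genes and left 11703 genes tested. The livers came from 20 male ob/ob mice, which lack leptin, grow obese and have high insulin, and each liver was read on 1 single-channel array. There were 4 groups of 5 mice. One group had filtered air. Another drank metformin, a drug for type 2 diabetes, at a dose set by body weight, and its label names no air. The PM2.5 group spent 6 hours each day in a chamber with fine airborne particles, and the group called combined here had both PM2.5 and metformin. All groups ended after 2 weeks. Age and the amount of metformin are not given in the sources used here. Time in the chamber is stated for PM2.5 alone, so the particles and the stay itself cannot be told apart. All controls are ob/ob too, so no lean liver enters the comparisons.

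Insulin binds its receptor, which phosphorylates the substrates IRS1 and IRS2. These activate PI3 kinase and the kinase AKT2, which sends the transcription factors FOXO1 and FOXO3 out of the nucleus. In the fasted liver FOXO1 turns on gluconeogenesis, and also Irs2 and Igfbp1. Growth hormone acts through its receptor on JAK2 and STAT5 and drives hepatic Igf1, the main source of IGF-1 in blood, whose action the IGF binding proteins limit.

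All values are deposited log2 signals, a difference is a log2 difference ± its standard error from limma, and mice are numbered within a group in deposition order, so equal numbers pair no mice. The labels do not say whether mice shared a cage or litter. The words rose and fell are kept for an adjusted p under 0.05 over the 11703 genes. Levels of different genes come from different probes and are not compared. The medians of the arrays lay between 4.77 and 4.92, and the probe sets that their identifiers mark as negative controls had a mean median of 4.49. Mice 2 and 4 of the combined group stood apart: their negative-control medians were 4.79 and 4.69, against 4.34 to 4.59 on the other 18 arrays. Where calls of that group changed, they or the counts of a list are therefore given with and without them, except for cell markers. Mice 2 and 5 of that group had the lowest correlation with a mouse of their own group, 0.972. The 7 hepatocyte markers were all far above background, with a log2 summed signal of 20.80 to 20.99 over all mice. In whole tissue, fewer cells of a type and less RNA per cell cannot be told apart.

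Where in the genome these genes lie, and what stands before them, was read from RefSeq on GRCm38.p6. Promoter entries, 250 bases before to 50 after a start site, were matched for 9 of the 10 genes, 14 entries in all, with none for Insr. Each was searched on both strands for 3 motifs, of which the insulin response and FOXO motifs share the letters AAACA. The insulin response motif CAAAACAA, known from the Igfbp1 promoter as a stretch that FOXO proteins bind, was in 3 of the 14 entries and in 2.51% of all 32851 promoters. It lay in Irs1, Irs2 and Igfbp1, the substrates and the binding protein whose levels are compared below. These windows are shown because they are the only ones with the motif. Each runs 5′ to 3′ on the gene's strand, with the motif in capitals. It reads TTGTTTTG where it lies on the other strand, and it begins 33 bases before the start site in Irs1, 38 in Irs2 and 108 in Igfbp1. The windows are chr1:82291425-82291512 (minus strand), chr8:11008920-11009007 (minus strand) and chr11:7197639-7197726 (plus strand).
Irs1: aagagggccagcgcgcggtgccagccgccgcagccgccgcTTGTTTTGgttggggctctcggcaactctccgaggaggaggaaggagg
Irs2: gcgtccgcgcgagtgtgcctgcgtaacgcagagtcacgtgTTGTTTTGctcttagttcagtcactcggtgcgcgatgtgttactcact
Igfbp1: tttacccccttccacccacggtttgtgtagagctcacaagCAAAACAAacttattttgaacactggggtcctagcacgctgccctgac
The Irs1 window was the richest in G and C, at 69.3%, against 55.7% in Irs2 and 50% in Igfbp1. The FOXO binding motif GTAAACA was in 0 of the 14 entries and in 3.65% of all promoters. The STAT5 motif TTCNNNGAA was in 1 of the 14, that of Akt2, and in 8.3% of all promoters. A match in these windows describes letters and shows no binding.

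Of the 10 genes, 5 changed in at least 1 of 6 comparisons between groups: Insr, Irs1, Irs2 and Foxo1 rose and Ghr fell. The share of all tested genes that changed in at least 1 comparison was not counted. In the combined group against filtered air alone, 18.9% of them rose and 16.4% fell. The largest shifts were in the combined group against filtered air, where Insr was 2.73-fold and Foxo1 2.79-fold higher. With PM2.5 alone Insr, Irs2 and Foxo1 rose. With metformin alone none of the 10 passed. Akt2, Foxo3, Igf1, Igfbp1 and Igfbp2 passed in no comparison.

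In PM2.5 against filtered air, 3 of the 10 genes rose and 0 fell, where 2.72% of all tested genes rose and 2.56% fell. In metformin against filtered air 0 rose and 0 fell in limma, with 2 at an unadjusted p under 0.05, beside 1.29% and 1.91% of all tested genes. The combined group against filtered air had 4 higher and 1 lower, beside 18.9% and 16.4% of all tested genes, so many genes moved in that comparison. In it the 2 groups did not overlap for 3 of the 10 genes (Insr, Foxo1 and Ghr) and for 21% of all tested genes. Against PM2.5 the combined group had 2 higher and 0 lower, beside 7.07% and 4.79%. Against metformin it had 3 higher and 1 lower, beside 9.82% and 6.72%. Without combined mice 2 and 4 the shares of all tested genes were 13.6% and 8.37% against filtered air, 1.49% and 0.291% against PM2.5, and 3.16% and 1.18% against metformin. With the negative-control covariate they were 6.51% and 2.57%, 0.615% and 0.0598%, and 5.65% and 2.96%. Without combined mouse 5 the share lower than with PM2.5 was 9.54%. The median difference of the 10 genes was 0.36 for PM2.5, 0.16 for metformin and 0.49 for the combined group, each against filtered air, and that of all tested genes was 0.02, 0.00 and 0.01. These comparisons share the filtered air mice.

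**Figure D1:**
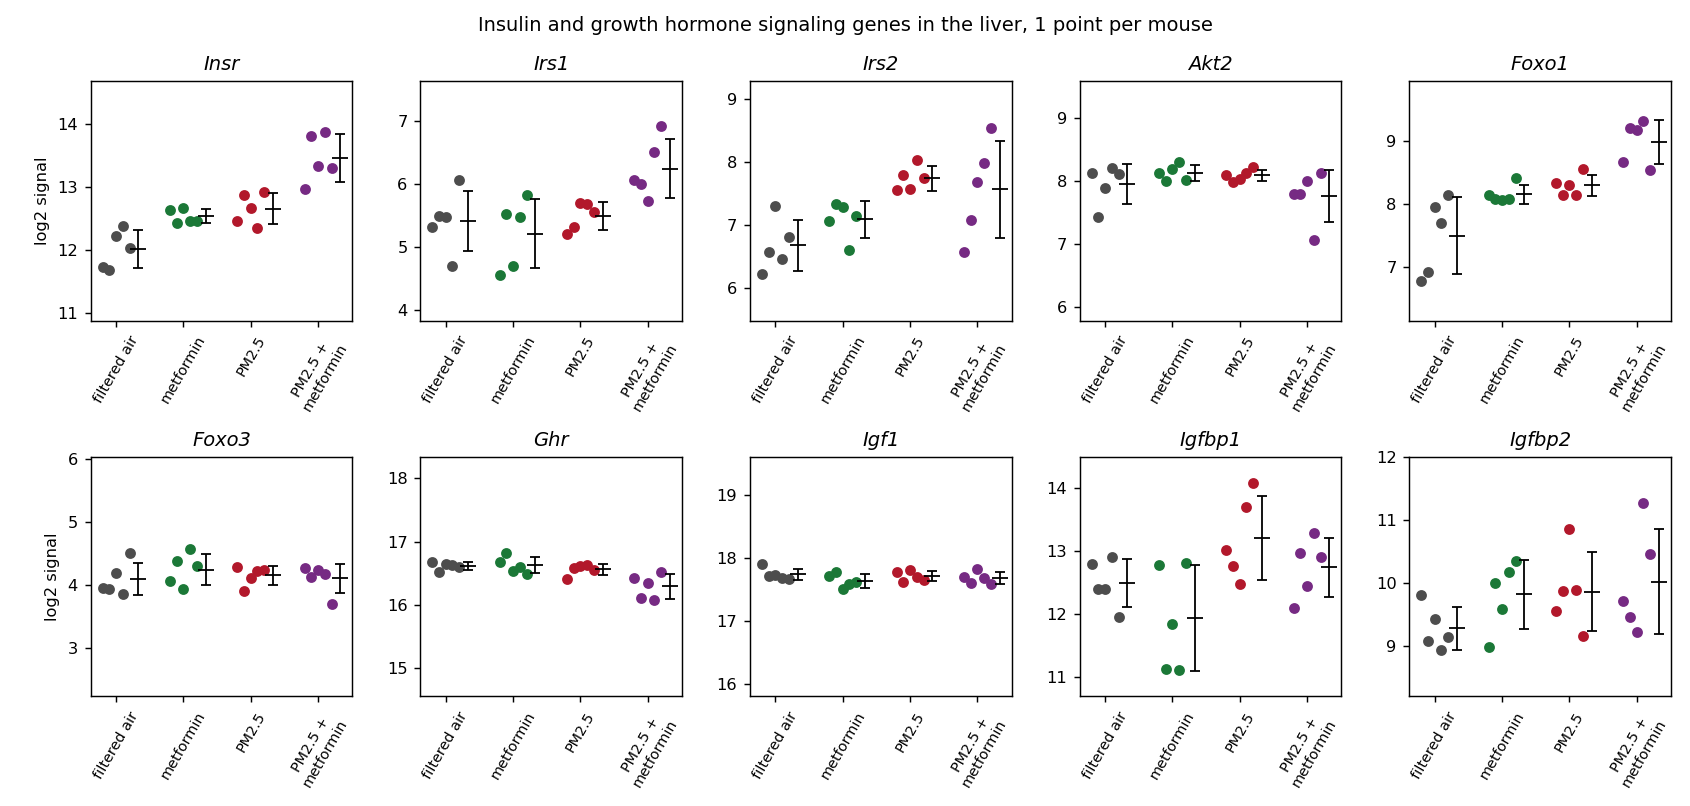
Log2 signal of the 10 genes in the 4 groups, 1 point per mouse (5 per group, left to right mice 1 to 5), with the group mean and SD as bars beside the points; every panel spans at least 3 log2 units. Insr and Foxo1 sit highest in the combined group, with means of 13.47 and 8.99, while all 20 Igf1 values lie within 0.39 log2 units.

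**Figure D2:**
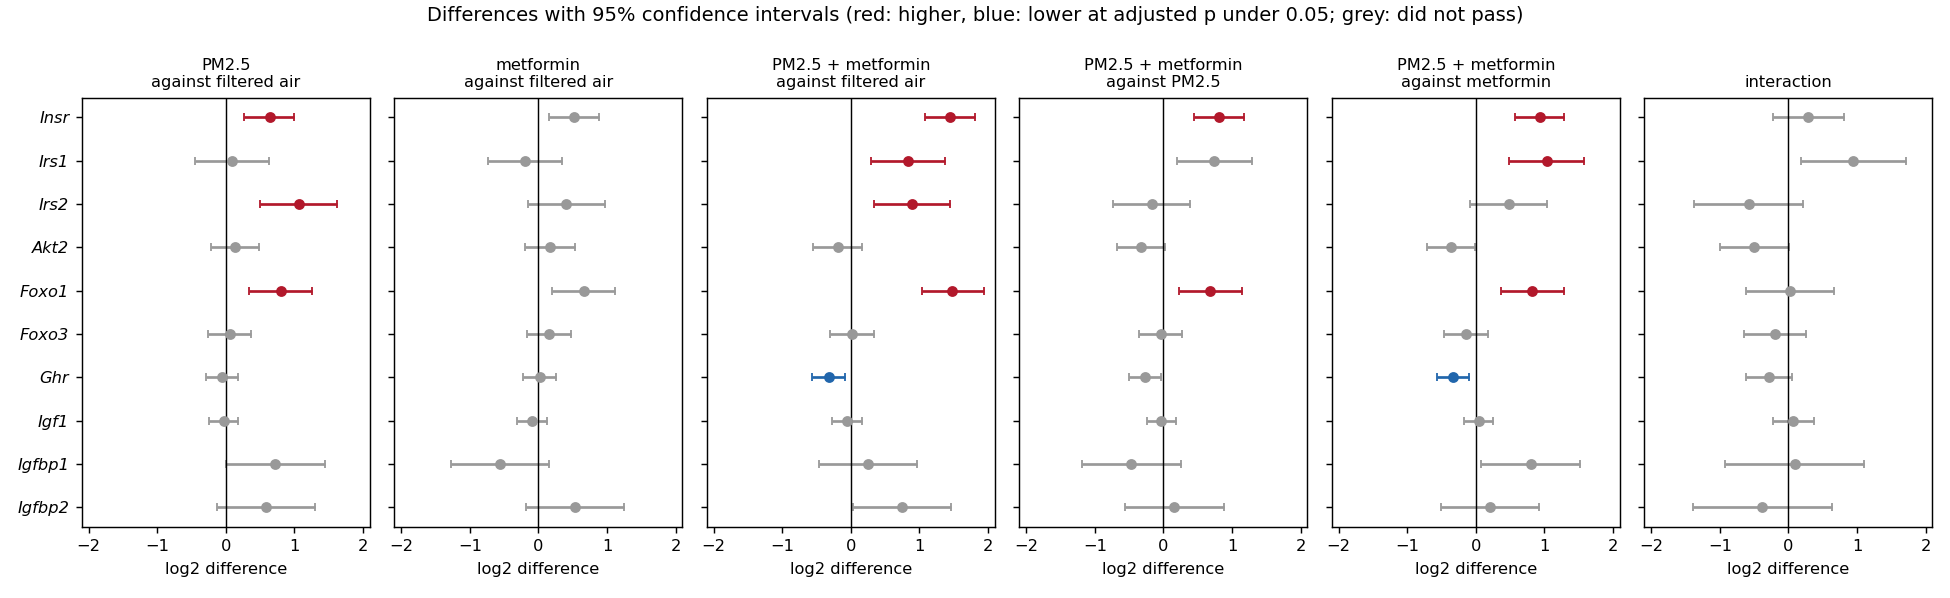
Log2 differences of the 10 genes with 95% confidence intervals in 5 comparisons between groups and in the interaction; red is higher and blue lower at an adjusted p under 0.05, grey did not pass. Insr and Foxo1 are red in 4 of the 5 comparisons between groups, and Ghr is the only blue gene, with -0.32 and -0.34 in the combined group against filtered air and against metformin.

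Insr, the insulin receptor (chr8:3150922-3279649), had its lowest mean in filtered air and its highest in the combined group. Its log2 signal in mice 1 to 5 of filtered air was 11.74, 11.69, 12.22, 12.39 and 12.04. The metformin mice had 12.64, 12.44, 12.67, 12.46 and 12.47, all above every filtered air mouse. In the PM2.5 group it was 12.47, 12.88, 12.67, 12.35 and 12.92, and 4 of the 5 lay above every filtered air mouse. The combined mice had 12.98, 13.82, 13.34, 13.88 and 13.30, all above every mouse of the other 3 groups. The order of the means was filtered air, 12.02, metformin, 12.54, PM2.5, 12.66, and combined, 13.47, and the neighbours metformin and PM2.5 overlapped (difference 0.12 ± 0.18, adjusted p = 0.803). With PM2.5 the receptor rose by 0.64 ± 0.18, or 1.56-fold (adjusted p = 0.0366). Metformin against filtered air gave 0.52 ± 0.18, with a 95% confidence interval of 0.15 to 0.88, and did not pass (adjusted p = 0.105), although the groups did not overlap, as in 6.82% of all tested genes. With the negative-control covariate it was 0.32 (adjusted p = 0.355).

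The combined group had more Insr signal than each single treatment. It rose by 0.81 ± 0.18 over PM2.5 (adjusted p = 0.00599), by 0.93 ± 0.18 over metformin (adjusted p = 0.00189) and by 1.45 ± 0.18 over filtered air (adjusted p = 1.12e-05). Mice 2 and 4, which have the highest negative-control medians, also have the 2 highest Insr signals. Without them the rise over filtered air was 1.19 ± 0.17 (adjusted p = 0.00031) and that over metformin 0.67 ± 0.17 (adjusted p = 0.036), and the difference from PM2.5 was 0.55 and did not pass (adjusted p = 0.115). With the negative-control median as a covariate the difference from PM2.5 was 0.50 (adjusted p = 0.216). The rise with PM2.5 did not pass without filtered air mouse 1, 2 or 5 or PM2.5 mouse 2, 3 or 5, where it was 0.56 to 0.64 with an adjusted p of 0.0536 to 0.114.

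Ghr, the growth hormone receptor (chr15:3317755-3583352), fell in the combined group alone against filtered air and against metformin. The filtered air mice had 16.68, 16.51, 16.64, 16.63 and 16.59, and the metformin mice 16.68, 16.82, 16.54, 16.60 and 16.49. With PM2.5 the signal was 16.41, 16.58, 16.61, 16.63 and 16.55. These 3 groups overlapped, with means of 16.61, 16.63 and 16.56. In the combined group it was 16.42, 16.10, 16.34, 16.07 and 16.51, and mice 2 and 4 were the lowest of all 20. Against filtered air Ghr fell by 0.32 ± 0.11 on the log2 scale, 1.25-fold lower, and the groups did not overlap at full precision (adjusted p = 0.0318). Against metformin it fell by 0.34 ± 0.11 (adjusted p = 0.0443). Against PM2.5 the difference was -0.27, with an interval of -0.50 to -0.03, and did not pass (adjusted p = 0.13).

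The Ghr calls lay near the threshold, and leaving out a single array could end them. Without combined mice 2 and 4 the differences were -0.18 against filtered air (adjusted p = 0.279) and -0.20 against metformin (adjusted p = 0.334), and with the negative-control covariate they were -0.16 (adjusted p = 0.489) and -0.26 (adjusted p = 0.152). Against filtered air the call also ended without filtered air mouse 1, 3 or 4 or combined mouse 2 or 4 alone, with differences of -0.31 to -0.26. Against metformin it ended in 14 of 20 fits that each left out 1 mouse, with differences of -0.37 to -0.28 among them. Quantile normalization and a fit of the compared arrays alone also ended both calls, with an adjusted p of 0.0572 and 0.0819 against filtered air and 0.0959 and 0.13 against metformin. The 14 mice were filtered air 1, 2 and 3, metformin 1 to 5, PM2.5 2, 3 and 5, and combined 2, 3 and 4.

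**Figure D3:**
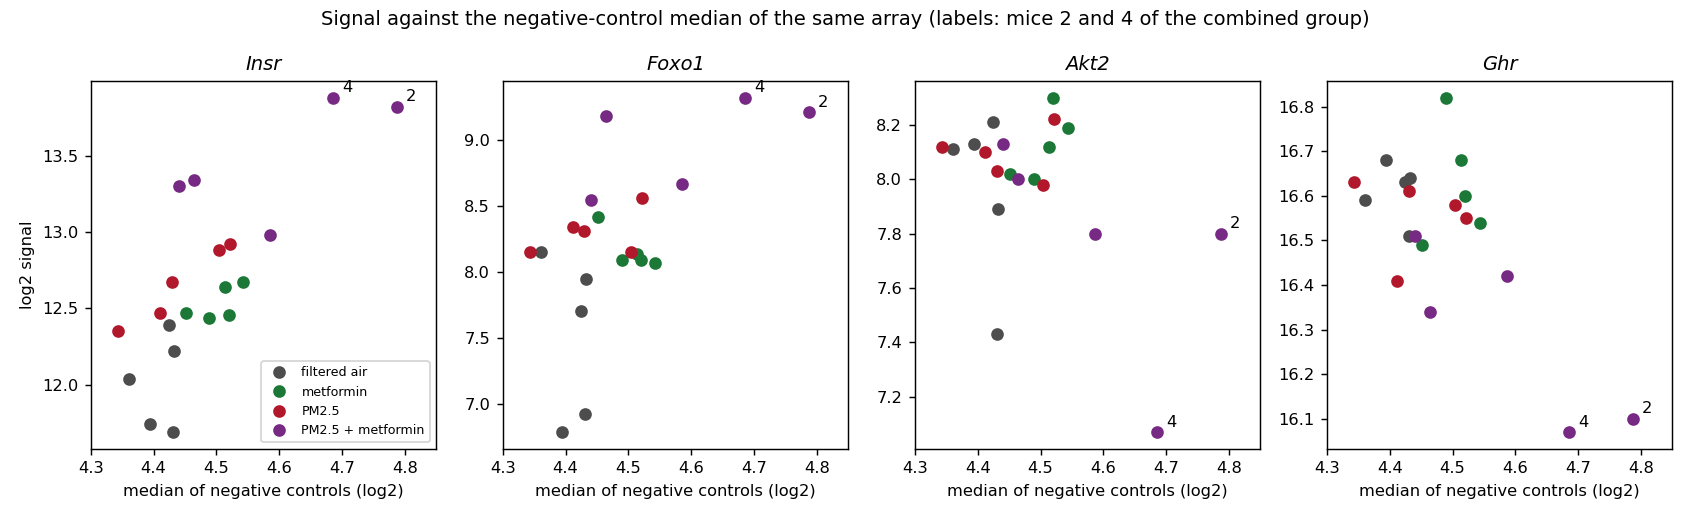
Log2 signal of Insr, Foxo1, Akt2 and Ghr against the median log2 signal of the negative-control probe sets on the same array, 1 point per mouse, coloured by group. Mice 2 and 4 of the combined group, numbered in the plot, lie at the far right, at 4.79 and 4.69, with the highest Insr and the lowest Ghr signals.

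Irs2, the substrate whose gene FOXO1 is known to turn on in fasting (chr8:10984681-11008929), rose with PM2.5. Filtered air mice had log2 signals of 6.23, 6.58, 7.30, 6.47 and 6.81, and PM2.5 mice 7.56, 7.79, 7.58, 8.04 and 7.74. Every PM2.5 mouse lay above every filtered air mouse, which held for 7.02% of all tested genes in either direction. The rise was 1.06 ± 0.27, or 2.09-fold (adjusted p = 0.0257). Its signal was above the 95th percentile of the negative controls on only 1 of 20 arrays, and above their median on all 20. It did not pass without filtered air mouse 1 or 2 or PM2.5 mouse 2 or 5, where it was 0.95 to 1.06 with an adjusted p of 0.0561 to 0.0818. The metformin mice had 7.07, 7.34, 7.28, 6.60 and 7.15, a difference of 0.41 from filtered air that did not pass (adjusted p = 0.438). Every PM2.5 mouse also lay above every metformin mouse, with a difference of 0.65 ± 0.27 that did not pass (adjusted p = 0.233).

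In the combined group Irs2 was the most spread of all its groups, with 6.57, 7.08, 7.69, 7.98 and 8.54 and an SD of 0.77, against 0.20 with PM2.5 alone. Of these mice 2 lay within the filtered air range, and mouse 5 had the highest value of all 20. The mean rose by 0.89 ± 0.27 over filtered air (adjusted p = 0.0136), and it rose by 0.92 without mice 2 and 4 (adjusted p = 0.0384). With only the arrays of those 2 groups in the fit the adjusted p was 0.0507. Against PM2.5 the difference was -0.17 ± 0.27 (adjusted p = 0.742), and against metformin 0.48 ± 0.27 (adjusted p = 0.232), or 0.73 without combined mouse 1 (adjusted p = 0.0406).

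Irs1, the other main substrate (chr1:82233105-82291439), rose in the combined group against filtered air, as Irs2 did, but did not pass with PM2.5. Whether the 2 genes differed was not tested. Filtered air mice had 5.31, 5.49, 5.47, 4.70 and 6.06, metformin mice 4.55, 5.52, 4.70, 5.47 and 5.82, and PM2.5 mice 5.21, 5.31, 5.70, 5.68 and 5.56. These groups overlapped, and PM2.5 against filtered air gave 0.09 ± 0.26 (adjusted p = 0.877). The combined mice had 6.06, 6.00, 5.72, 6.51 and 6.91, of which 4 lay above every metformin mouse. Irs1 rose by 1.03 ± 0.26 over metformin (adjusted p = 0.011) and by 0.83 ± 0.26 over filtered air (adjusted p = 0.0167). Over PM2.5 the difference was 0.74 ± 0.26 and did not pass (adjusted p = 0.0652), although the groups did not overlap, as in 6.41% of all tested genes, and it was 0.87 without combined mouse 3 (adjusted p = 0.0435). Without combined mice 2 and 4 the values were 1.02 (adjusted p = 0.065) and 0.82 (adjusted p = 0.0618) over metformin and filtered air, and without filtered air mouse 4 the latter was 0.66 (adjusted p = 0.0549). Irs1 was a dim probe set, below the 95th percentile of the negative controls on all 20 arrays.

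Akt2, the main AKT kinase of hepatic insulin action (chr7:27591552-27640826), passed in no comparison. Its signal was above the 95th percentile of the negative controls on 2 of 20 arrays. Group means were 7.95 in filtered air, 8.13 with metformin, 8.09 with PM2.5 and 7.76 in the combined group. The lowest of all 20 values, 7.07, was combined mouse 4, and the other 4 combined mice had 7.80 to 8.13. Against metformin the combined group differed by -0.37 ± 0.17 (adjusted p = 0.15), and by -0.19 without mouse 4. Against PM2.5 it differed by -0.33 (adjusted p = 0.228), and by -0.15 without mouse 4.

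Foxo1, the transcription factor of gluconeogenesis that AKT holds out of the nucleus (chr3:52268337-52350109), followed the same order of groups as Insr. Filtered air mice had 6.79, 6.93, 7.95, 7.71 and 8.15, the widest spread of its groups (SD 0.61). The metformin mice had 8.14, 8.09, 8.07, 8.09 and 8.42, and the PM2.5 mice 8.34, 8.15, 8.31, 8.15 and 8.56. The lowest PM2.5 values lay level with the highest filtered air value to 2 decimals and just above it at full precision. The combined mice had 8.67, 9.21, 9.18, 9.32 and 8.55. Only mouse 5 among them lay within the PM2.5 range. The Foxo1 signal was above the 95th percentile of the negative controls on 10 of 20 arrays, and above their median on all 20.

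With PM2.5, Foxo1 rose by 0.80 ± 0.22, or 1.74-fold (adjusted p = 0.0372). That rise leaned on filtered air mice 1 and 2, the 2 lowest. It was 0.62 (adjusted p = 0.121) without mouse 1 and 0.66 (adjusted p = 0.0996) without mouse 2, and it also did not pass without PM2.5 mouse 1, 2, 3 or 5, where it was 0.74 to 0.84. With only the arrays of the 2 groups in the fit its adjusted p was 0.0581. Metformin against filtered air gave 0.66 ± 0.22, with an interval of 0.20 to 1.12, and did not pass (adjusted p = 0.102), and with the negative-control covariate it was 0.57 (adjusted p = 0.259). PM2.5 against metformin gave 0.14 ± 0.22 (adjusted p = 0.82).

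The combined group had a Foxo1 mean of 8.99. It rose by 1.48 ± 0.22 over filtered air (adjusted p = 5.88e-05) and by 0.82 ± 0.22 over metformin (adjusted p = 0.015), with no overlap in either. Over PM2.5 it rose by 0.68 ± 0.22 (adjusted p = 0.0465), a call that held in only 7 of 20 fits that each left out 1 mouse. It ended without filtered air mouse 4, any of the 5 metformin mice, PM2.5 mouse 1, 2, 3 or 4, or combined mouse 2, 3 or 4, with differences of 0.60 to 0.69. Without mice 2 and 4 of the combined group together, the rise over filtered air was 1.30 (adjusted p = 0.00185), and the differences from metformin and PM2.5 were 0.64 (adjusted p = 0.143) and 0.50 (adjusted p = 0.354). With the negative-control covariate these 2 differences were 0.74 (adjusted p = 0.0546) and 0.54 (adjusted p = 0.384).

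Foxo3 (chr10:42181845-42276695), a related factor, had signals of 3.70 to 4.56 and lay above the negative-control median of the array on only 2 of 20 arrays. It was thus read at background level, and no difference passed. The array therefore says little about Foxo3.

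Igf1 (chr10:87858265-87937047), the hormone that growth hormone induces in liver, had a mean signal of 17.69, at the 99.7th percentile of all genes. The group means were 17.74 in filtered air, 17.64 with metformin, 17.71 with PM2.5 and 17.68 in the combined group. The combined group differed from filtered air by -0.06 ± 0.10, with a 95% confidence interval of -0.27 to 0.16. Metformin differed by -0.09, with an interval of -0.31 to 0.12, and PM2.5 by -0.03, with an interval of -0.24 to 0.18. The array maxima were 18.69 to 19.03, and whether signals this near them are compressed was not tested, for Igf1 or for Ghr, at 16.52.

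Igfbp1, the binding protein that fasting raises and insulin lowers (chr11:7197787-7202546), had the widest range of the 10 genes, 2.97 log2 units. Filtered air mice had 12.80, 12.39, 12.39, 12.91 and 11.95, and PM2.5 mice 13.02, 12.76, 12.47, 13.70 and 14.08. Of the PM2.5 mice 3 lay above every filtered air mouse, and the difference was 0.72 ± 0.35, which did not pass (adjusted p = 0.223). The metformin mice split into 12.78 and 12.81 in mice 1 and 5 and 11.13, 11.84 and 11.11 in the others. PM2.5 exceeded metformin by 1.27 ± 0.35, with an interval of 0.55 to 1.99, which did not pass (adjusted p = 0.0642). It passed without metformin mouse 1 (1.48, adjusted p = 0.0341), without PM2.5 mouse 3 (1.46, adjusted p = 0.0484) and with array weights (1.23, adjusted p = 0.0466). In limma 0 of the 10 genes passed either way in this comparison, with 2 at an unadjusted p under 0.05 (Igfbp1 and Irs2), beside 1.03% of all tested genes higher and 0.718% lower. Of those calls over all genes 59% were higher, and 45.8% with each array centred on its median. The combined mice had 12.09, 12.97, 12.45, 13.28 and 12.90, none of them outside the span from the lowest filtered air to the highest PM2.5 mouse.

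Igfbp2 (chr1:72824480-72852474), a binding protein that leptin and insulin regulate in liver, had means of 9.28 in filtered air, 9.82 with metformin, 9.86 with PM2.5 and 10.02 in the combined group. Its values ran from 8.94 to 11.26, and all 4 groups overlapped. The combined group exceeded filtered air by 0.74 ± 0.35, with an interval of 0.03 to 1.46 (adjusted p = 0.0999), and by 0.94 without combined mouse 3 (adjusted p = 0.0451). The other differences from filtered air were 0.58 with PM2.5 (adjusted p = 0.325) and 0.54 with metformin (adjusted p = 0.427).

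Whether metformin acted differently with PM2.5 than without it was asked by the interaction, the metformin difference under PM2.5 minus that without PM2.5. In limma 0 of the 10 genes passed in either direction, with 1 at an unadjusted p under 0.05, and among all tested genes 0.162% passed as positive and 0.0256% as negative. The 1 gene was Irs1, with 0.94 ± 0.37 and an interval of 0.18 to 1.71 (adjusted p = 0.268). Akt2 had -0.50 ± 0.24 (adjusted p = 0.388) and Irs2 -0.58 ± 0.38 (adjusted p = 0.551). For Insr it was 0.29 ± 0.25, with an interval of -0.22 to 0.81, and for Foxo1 0.02 ± 0.31, with an interval of -0.62 to 0.67. The intervals leave room for an interaction of either sign in these 2 genes. Without combined mouse 5 the shares of all tested genes were 1.21% and 1.28%, and 0 of the 10 passed there too.

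Over the 20 arrays Insr and Foxo1 had a Pearson correlation of 0.90, and 0.63 once group means were removed. Insr and Ghr had -0.74, and -0.42 within groups. Akt2 and Ghr had 0.62, and 0.51 within groups. These describe arrays that share their groups and the background of 2 combined mice. The genes most like Insr over the 20 arrays were Fam120a (0.98), Eef2 (0.97) and Mon2 (0.96), and those most like Foxo1 were Tle1 and Itpr2 (0.93 each) and Nfkbia (0.92). Irs2 was nearest to Plekhm2 (0.87), Sde2 (0.83) and Rbpms (0.82). Irs1 was nearest to Chd1 (0.86), Smchd1 (0.82) and Mto1 (0.81), and Ghr to Copg2 and Rnf14 (0.93 each) and Adal (0.92).

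The other genes of these pathways were taken from 8 lists that hold none of the 10. Their counts are to be set beside the shares of all tested genes that rose and fell. Against filtered air these were 2.72% and 2.56% with PM2.5, 1.29% and 1.91% with metformin, and 18.9% and 16.4% in the combined group. The combined group had 7.07% and 4.79% against PM2.5, and 9.82% and 6.72% against metformin. No list was tested as a set. Of 23 tested genes of the insulin signaling cascade, 1 rose and 1 fell with PM2.5, 0 changed with metformin, and 11 rose and 2 fell in the combined group against filtered air. Gab1, an adaptor, rose by 0.82 ± 0.18 with PM2.5 (adjusted p = 0.0117) and by 1.01 ± 0.18 in the combined group (adjusted p = 0.000283). Shc1, the adaptor to the RAS branch, fell by 0.53 ± 0.13 (adjusted p = 0.0184) and fell by 0.77 ± 0.13 (adjusted p = 0.000151). Akt1, the sister kinase of Akt2, rose by 1.02 ± 0.21 in the combined group (adjusted p = 0.00085), Sos1 rose by 0.99 ± 0.20 (adjusted p = 0.000633), and Rheb, which activates mTORC1, fell by 0.72 ± 0.14 (adjusted p = 0.000743). The median of the list was 0.52 in that comparison and 0.23 with PM2.5. Without combined mice 2 and 4 the counts against filtered air were 8 and 2, and with the negative-control covariate 3 and 1.

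Against PM2.5, 3 cascade genes rose in the combined group (Sos1, Akt1 and Pde3b), and 0 did without mice 2 and 4. Against metformin 3 rose and 3 fell, beside 9.82% and 6.72% of all tested genes. There Akt1 rose by 0.83 ± 0.21 (adjusted p = 0.011) and Pdpk1, the kinase that activates AKT, fell by 0.83 ± 0.25 (adjusted p = 0.0276). Without mice 2 and 4, 0 rose and 1 fell, which was Rheb, and Pdpk1 was -0.41 (adjusted p = 0.318).

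Of 17 tested inhibitors of insulin signaling, 2 rose with PM2.5, 0 changed with metformin and 7 rose in the combined group against filtered air, and 0 fell. Of all tested genes 2.72% rose with PM2.5 and 18.9% in the combined group. With PM2.5 Prkcd, a kinase that phosphorylates IRS proteins, rose by 0.80 ± 0.18 (adjusted p = 0.0112) and Inpp5k, a phosphoinositide phosphatase, by 0.85 ± 0.19 (adjusted p = 0.0126). Both also rose in the combined group, by 0.89 ± 0.18 and 0.90 ± 0.19. The widest shift was in Ptprf, the receptor phosphatase LAR. Its means were 9.32 in filtered air, 9.40 with metformin, 9.30 with PM2.5 and 11.11 in the combined group, and no combined mouse overlapped another group. Ptprf rose by 1.80 ± 0.25 over filtered air (adjusted p = 3.99e-05) and by 1.81 ± 0.25 over PM2.5 (adjusted p = 0.000447). Its interaction was 1.72 ± 0.36 (adjusted p = 0.0479), and it was the only inhibitor with one that passed. Without combined mice 2 and 4 Ptprf rose by 1.59 over filtered air (adjusted p = 0.00126) and by 1.61 over PM2.5 (adjusted p = 0.00961), and its interaction was 1.52 ± 0.38 (adjusted p = 0.151). Grb14, which blocks the receptor kinase, rose by 1.03 ± 0.21 in the combined group (adjusted p = 0.000959), and Ptpn1, the phosphatase PTP1B, by 0.87 ± 0.22 (adjusted p = 0.00426). Phlpp1, a phosphatase of AKT, rose by 0.51 ± 0.16 over PM2.5 (adjusted p = 0.0387), and was 0.44 without those mice (adjusted p = 0.239). The count of 7 became 6 without those mice and 4 with the covariate.

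The 20 FOXO targets that insulin represses gave 5 higher and 0 lower with PM2.5, 2 and 0 with metformin, and 6 and 2 in the combined group, each against filtered air. Of all tested genes, 2.72% rose and 2.56% fell, 1.29% and 1.91%, and 18.9% and 16.4%, in these 3 comparisons. Pck1, the enzyme that commits carbon to gluconeogenesis, had the lowest p of the list in all 3. It rose by 1.26 ± 0.20 with PM2.5 (adjusted p = 0.0019), by 1.27 ± 0.20 with metformin (adjusted p = 0.00131) and by 1.48 ± 0.20 in the combined group (adjusted p = 3.24e-05), with no overlap with filtered air in any. Txnip, which limits glucose uptake, rose by 1.93 ± 0.34 with PM2.5 (adjusted p = 0.00309), by 1.40 ± 0.34 with metformin (adjusted p = 0.0282) and by 1.24 ± 0.34 in the combined group (adjusted p = 0.00762). Fbxo32 and Cdkn1b rose with PM2.5 by 0.86 ± 0.21 and 0.65 ± 0.19 (adjusted p = 0.0195 and 0.044). Pdk4, which turns cells from glucose to fat oxidation, rose by 1.66 ± 0.41 with PM2.5 (adjusted p = 0.021). It fell by 2.66 ± 0.41 in the combined group against PM2.5 (adjusted p = 0.000743), and fell by 2.18 without mice 2 and 4 (adjusted p = 0.0172). G6pc, the last step of glucose release, gave 0.15 with PM2.5 (adjusted p = 0.7) and -0.41 in the combined group (adjusted p = 0.124). Cited2, a transcriptional coregulator, rose by 1.18 ± 0.27 in the combined group (adjusted p = 0.00196) and by 1.07 ± 0.27 over metformin (adjusted p = 0.0105). Sesn1 fell by 0.80 ± 0.23 in the combined group (adjusted p = 0.00855), and it was -0.64 without mice 2 and 4 (adjusted p = 0.0819) and -0.41 with the covariate (adjusted p = 0.345). Sesn3 rose over PM2.5 by 0.62 ± 0.19 and over metformin by 0.79 ± 0.19, and neither passed without those mice (0.52, adjusted p = 0.259, and 0.68, adjusted p = 0.0814). Against metformin, PM2.5 had 3 higher, Pdk4, Fbxo32 and Sik1. The list median was 0.25 with PM2.5, -0.07 with metformin and 0.19 in the combined group. Without combined mice 2 and 4, and likewise with the covariate, the combined counts were 4 (Pck1, Txnip, Cdkn1b and Cited2) and 1, which was Gadd45a, not Sesn1 or Adipor2. Gadd45a was -0.65 with all mice (adjusted p = 0.0809) and -0.94 without those mice (adjusted p = 0.0223).

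Among 10 tested genes that hepatic insulin induces, 6 fell with PM2.5, 9 with metformin and 9 in the combined group against filtered air, and 0 rose. Of all tested genes 2.56%, 1.91% and 16.4% fell in these comparisons. The list medians were -1.68, -2.45 and -2.25. Angptl8, a regulator of lipoprotein lipase, fell by 3.19 ± 0.39 with PM2.5 (adjusted p = 0.000126), and Pnpla3, a lipid droplet protein, fell by 3.03 ± 0.43 (adjusted p = 0.000778). Mid1ip1 fell by 2.68 ± 0.42 (adjusted p = 0.00138) and Acaca, which makes malonyl-CoA, fell by 1.79 ± 0.37 (adjusted p = 0.00857). With metformin Acaca fell by 2.97 ± 0.37 and Thrsp fell by 1.43 ± 0.20, and in the combined group Elovl6 fell by 2.87 ± 0.40 and Thrsp fell by 1.26 ± 0.20. Acly, Thrsp and Fasn were higher with PM2.5 than with metformin, and Fasn and Acly in the combined group than with metformin. In the latter comparison 0 of the 10 genes passed as higher without combined mice 2 and 4, and 0 with the negative-control covariate. The interaction was positive and passed for 4 of the 10, Angptl8, Pnpla3, Fasn and Acly, with 2.82 to 3.32, and for 1 without combined mice 2 and 4. Pnpla3 had means of 3.65 with metformin and 3.82 in the combined group, below the mean negative-control median of 4.49. At background level the size of its falls there and of its interaction cannot be read. The fall of 9 in the combined group stayed at 9 without those mice and was 8 with the covariate. In the combined group 4 fell further than with PM2.5. Without those mice none of the 4 passed, and the differences were of similar or smaller size: Pnpla3 was -1.43 with and -1.46 without them, Acaca -1.19 and -1.09, Thrsp -0.75 and -0.71, and Elovl6 -1.69 and -1.18. The list median was -0.67 with and -0.68 without them.

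Of 14 tested genes of growth hormone receptor signaling, 1 rose with PM2.5, 1 with metformin and 7 in the combined group against filtered air, and 0 fell. Of all tested genes 2.72%, 1.29% and 18.9% rose in these comparisons. Among the 14, the gene that rose in all 3 was Stat3, a transcription factor also used by IL-6. It rose by 0.76 ± 0.21 with PM2.5 (adjusted p = 0.0355), by 1.03 ± 0.21 with metformin (adjusted p = 0.00829) and by 1.69 ± 0.21 in the combined group (adjusted p = 1.17e-05). Stat5b and Stat5a, the factors through which growth hormone drives Igf1, rose in the combined group by 0.84 ± 0.13 and 0.80 ± 0.18 (adjusted p = 0.000107 and 0.00167). Ptpn11, the phosphatase SHP2, rose by 1.17 ± 0.15 (adjusted p = 2.2e-05). Sh2b1, an adaptor of JAK2, rose by 0.61 ± 0.13 (adjusted p = 0.00143). Socs2, which STAT5 induces, gave 0.07 ± 0.59 there (adjusted p = 0.939). Against PM2.5 the combined group had 4 higher and 1 lower, and against metformin 5 higher and 0 lower. The lower gene was Sh2b2, with -0.44 ± 0.14 (-0.40 without mice 2 and 4, adjusted p = 0.234). Its group means, 4.13 to 4.59, lay around the mean negative-control median of 4.49, so it was read at background level. Jak2 rose over metformin by 0.57 ± 0.17 (adjusted p = 0.0273), and was 0.54 without those mice (adjusted p = 0.107). Ptpn11 rose in both, by 0.84 ± 0.15 (adjusted p = 0.00224) and 0.79 ± 0.15 (adjusted p = 0.00241). Without mice 2 and 4 the counts of higher genes were 6 against filtered air, 1 against PM2.5 and 3 against metformin, and with the covariate 4, 0 and 3.

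Growth hormone also sets the sex-biased genes of liver. Of 16 tested male-biased targets, 1 fell with PM2.5 and 1 with metformin, in both cases Nudt7, and 1 rose (C8b) and 2 fell (Nudt7 and Serpina12) in the combined group, shares of the list below the 18.9% and 16.4% of all tested genes there. Nudt7, a peroxisomal hydrolase, fell by 1.23 ± 0.28 with PM2.5 (adjusted p = 0.0126) and fell by 1.46 ± 0.28 in the combined group (adjusted p = 0.000431). Without mice 2 and 4 Nudt7 fell by 1.24 (adjusted p = 0.00351) and Serpina12 fell by 0.95 (adjusted p = 0.0432), and C8b, at 1.21 ± 0.46 with them, was 0.48 (adjusted p = 0.464). With the covariate 0 of the 3 passed in the combined group, and Nudt7 with metformin was -0.96 (adjusted p = 0.083). Against PM2.5 Cyp2u1 rose, and against metformin Cyp4a12a and Cyp4a12b fell, and none of these passed without mice 2 and 4. Of 15 female-biased targets 0 passed with PM2.5 or metformin and 1, Cyp17a1, fell by 0.63 ± 0.18 in the combined group (adjusted p = 0.0109). Cyp17a1 was -0.57 without mice 2 and 4 (adjusted p = 0.0687) and -0.48 with the covariate (adjusted p = 0.203). Hamp2 rose by 0.83 ± 0.23 over metformin (adjusted p = 0.0183), and was 0.52 without those mice (adjusted p = 0.182).

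Of the 10 tested genes of the IGF system, 0 passed with PM2.5, 1 rose with metformin and 3 rose in the combined group against filtered air, where 18.9% of all tested genes rose. That count was 2 without combined mice 2 and 4 and 1 with the covariate. Igfbp4, an abundant hepatic binding protein, rose by 0.83 ± 0.20 with metformin (adjusted p = 0.0251) and by 1.52 ± 0.20 in the combined group (adjusted p = 1.99e-05), and by 1.16 without mice 2 and 4 (adjusted p = 0.000325). With the negative-control covariate its metformin difference was 0.57 and did not pass (adjusted p = 0.105). All metformin arrays, at 4.452 to 4.543, lay above all filtered air arrays, at 4.361 to 4.432, in the negative-control median. Igfals, the acid-labile subunit that holds IGF-1 in blood, rose by 1.16 ± 0.37 in the combined group (adjusted p = 0.0171), and the difference was 1.15 without mice 2 and 4 (adjusted p = 0.0687). Igf2r, which clears IGF-2, rose by 0.59 ± 0.22 in the combined group (adjusted p = 0.0396). Igfbp7 fell by 0.53 ± 0.13 in the combined group against PM2.5 (adjusted p = 0.0139), and was -0.42 without mice 2 and 4 (adjusted p = 0.136), and it rose by 0.57 ± 0.13 with PM2.5 over metformin (adjusted p = 0.0341). Igf1r, the IGF-1 receptor, gave 0.12 ± 0.12 (adjusted p = 0.476).

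**Figure D4:**
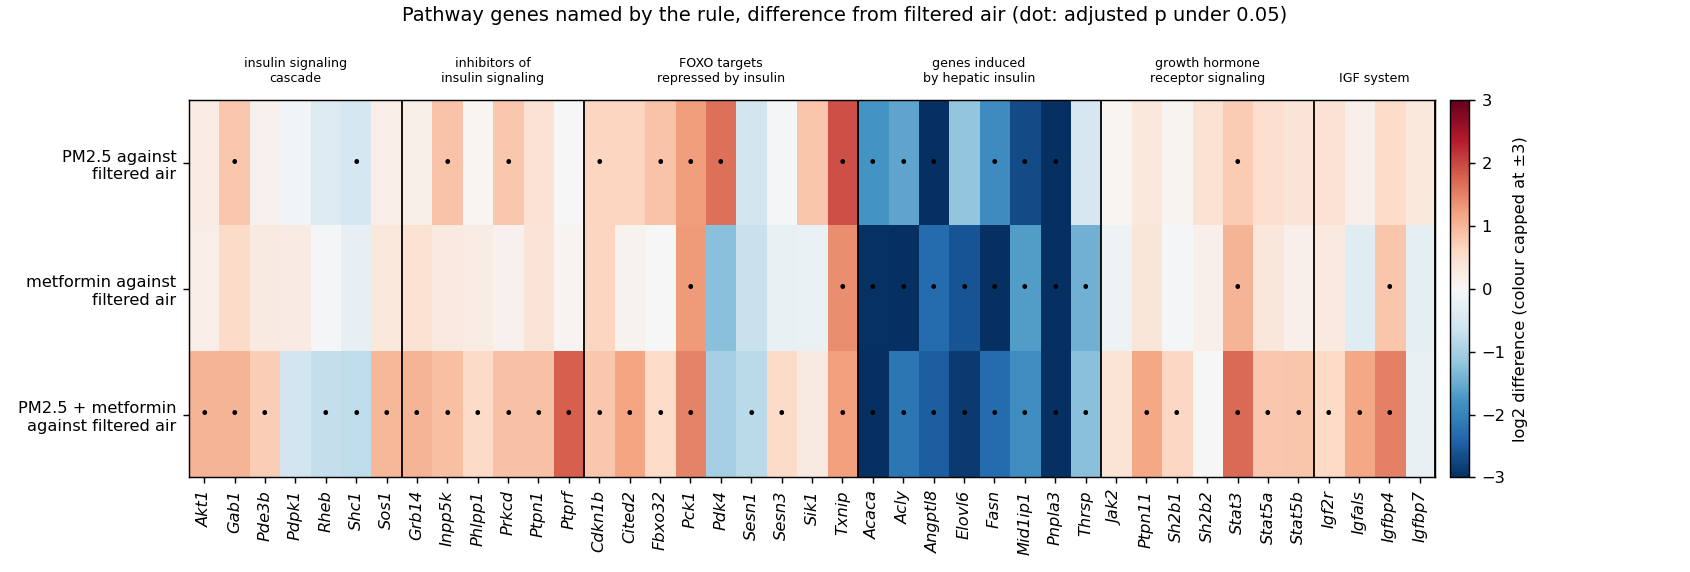
Log2 difference from filtered air of the pathway genes named by the rule, in columns grouped by list, for PM2.5, metformin and the combined group in rows; colour is the difference, capped at 3 either way, and a dot marks an adjusted p under 0.05. The plotted genes that insulin induces are blue in every row, such as Pnpla3 with -3.03, -4.62 and -4.46. Genes are plotted only if called in a comparison, and 1 of the 10 tested genes of that list lay above 0 with PM2.5. Ptprf is red in the combined group alone, with 1.80.

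Markers of other liver cells moved too, in the combined group and in other comparisons. Of 7 Kupffer cell markers, 5 fell against PM2.5 (Clec4f, Vsig4, Adgre1, Csf1r and Timd4) and 3 against filtered air, with list medians of -1.10 and -0.65. Of all tested genes 4.79% and 16.4% fell there, and 0.291% and 8.37% without combined mice 2 and 4. The markers were not read without those mice. The Kupffer counts are thus given with all mice only. The log2 summed signal of the Kupffer markers was 10.97 to 14.70 in the combined group, 13.50 to 14.58 in filtered air, 13.02 to 13.50 with metformin and 13.95 to 14.69 with PM2.5. Of 7 endothelial markers 3 fell against PM2.5 and 1 against filtered air, and their summed signal was 12.50 to 13.66 in the combined group and 13.43 to 13.87 in filtered air. It was 13.12 to 13.57 with metformin and 13.45 to 13.93 with PM2.5. In the combined group against metformin 1 Kupffer marker fell, 1 endothelial marker rose and 1 fell, and 1 stellate marker rose and 1 fell. Of all tested genes 9.82% rose and 6.72% fell in that comparison. With PM2.5 against filtered air 0 Kupffer markers passed, and 1 endothelial marker, Kdr, and 1 bile duct marker, Sox9, rose, beside 2.72% of all tested genes. The endothelial marker Stab2 fell with metformin against filtered air, beside 1.91% of all tested genes. PM2.5 against metformin had 3 of the 7 endothelial markers higher (Stab2, Pecam1 and Kdr), beside 1.03% of all tested genes. Of the 7 hepatocyte markers 0 fell in any comparison, and Fah rose in the combined group against filtered air and against metformin. Against filtered air the stellate cell markers Lrat and Dcn (2 of 6 tested), the bile duct marker Krt7 (1 of 3, lower with metformin too) and the fat cell marker Retn (1 of 2) fell in the combined group. The part of these other cells in the values of Insr, Foxo1, Ghr and the pathway lists was not tested.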

How the data were processed

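For each probe set on 20 arrays a log2 signal was deposited by the authors, made with Affymetrix Expression Console per the submitters' processing notes; its version and summary method are not given in the sources used here. The probe set identifiers belong to another array type than the series text states, and genes come from the annotation of those identifiers. Of 28846 probe sets, 6640 controls were left out of the gene tests, and 19572 of the other 22206 had 1 gene. The probe set with the highest mean stood for a gene that had several. Genes at or below the 40th percentile of gene means (log2 4.09) were left out. Since that lies below the negative-control median, genes at background level were among those tested.

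Differences come from limma 3.58.1 (R 4.3.3), as 4 group means over 20 arrays with eBayes (residual degrees of freedom 16, prior 5.66), two-sided, with Benjamini-Hochberg adjustment over 11703 genes in each of 7 comparisons. The model takes 1 variance per gene over all groups. The labels do not say which mice shared a cage, litter or batch, so p measures the spread between these 5 mice per group. Arrays give no read depth, and their number limits the precision. No 2 arrays held identical values.

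The 10 genes, the lists and the tests were chosen with earlier results of these data known. From each list up to 5 called genes with the lowest p per comparison are named, and for each called gene of the 10 the 3 genes with the highest correlation. G6pc, Socs2 and Igf1r were named outside that rule, after their values were seen. Of the lists, 23 of 27, 17 of 23, 20 of 20, 10 of 12, 14 of 18, 16 of 18, 15 of 16 and 10 of 14 genes, in the order of the text, were matched and tested.

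Alternatives were the filter left out or set at the 60th percentile, arrays scaled by quantiles or centred on their medians, probe sets of a gene averaged, eBayes with trend and robust options, array weights, the compared arrays only, the negative-control median as a covariate, combined mice 2 and 4 left out together, and each mouse left out in turn. The list values and shares of all genes under the covariate, without those mice and, for the shares, without combined mouse 5 were added after seeing the data. The fit was tested on simulated data.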

Additional observations from a re-analysis of the deposited data

Results flagged for a closer look

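In 2 of the 40 sets of 5 values (10 genes in 4 groups) a mouse stood far from the others of its group, where chance flags about 1 in 20. Foxo1 in metformin mouse 5 was 8.42, and the nearest other metformin mouse had 8.14, a gap of 0.79 of the group's range. Foxo3 in combined mouse 5 was 3.70, and the nearest had 4.13, a gap of 0.77 of the range, at background signal.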

How the results depend on the processing

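None of the 10 genes reversed a called difference under any alternative. The counts of genes called were 3 with PM2.5 against filtered air, 0 with metformin, 5 for the combined group against filtered air, 2 against PM2.5 and 4 against metformin, and 0 for PM2.5 against metformin and for the interaction. Leaving out each mouse in turn gave 0 to 3, 0 to 0, 3 to 6, 1 to 2, 3 to 5, 0 to 1 and 0 to 0 in that order. For PM2.5 against filtered air the count was 0 without filtered air mouse 1 or 2 or PM2.5 mouse 2 or 5, and 1, Irs2, without PM2.5 mouse 3. The combined group against PM2.5 had 1, Insr, with no filter, quantile normalization or array weights, and 0 with the negative-control covariate or without combined mice 2 and 4. Against metformin it had 2 with the covariate and 1 without those mice. Against filtered air it had 3 with the compared arrays only and 3 without those mice. With array weights metformin against filtered air had 2 (Insr 0.52, adjusted p = 0.0489, and Foxo1 0.71, adjusted p = 0.0452; with the covariate 0.32 and 0.57, adjusted p = 0.355 and 0.259) and PM2.5 against metformin had 1 (Igfbp1). Insr against filtered air and against metformin in the combined group passed under every alternative run. No paired analysis was possible because the labels share no replicate numbers between groups. Signal near background limits Foxo3 and, by the 95th percentile of the negative controls, Irs1, Irs2 and Akt2. By that percentile it limits Foxo1 in part, which was above it on 10 of 20 arrays. Irs1 was left out by the filter at the 60th percentile.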
